A study of Mus musculus with 16 samples.

Results

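The comparison is the genotype-by-time interaction between days 4 and 7 of differentiation: the log2 change from day 4 to day 7 in TKO cells minus the log2 change over the same days in WT cells. A positive value, called higher, means that a gene gained more or lost less in TKO than in WT, and a negative value, called lower, means the reverse. It rests on 8 of the 16 libraries of the series, 2 each of WT day 4, WT day 7, TKO day 4 and TKO day 7, and was estimated for 18489 of 35975 genes. The cells were mouse embryonic stem cells of the E14 line (ES-E14TG2a), kept at day 0 on fibronectin in N2B27 medium with vitamin C, LIF and the 2 kinase inhibitors known as 2i, then moved to Fgf2, Activin A and Knock-out serum, a medium that drives them toward epiblast-like cells. All 4 groups shared this treatment, and the cells were split once more at day 4. The labels name the 2 libraries of a group biological replicates without naming separate cultures. The p-values measure the spread between libraries of a group, estimated over all 8 groups of the series. Bulk poly(A) RNA was sequenced, so that fewer cells of a type and less RNA per cell cannot be told apart.

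Epiblast-like cells model the step at which the embryo's pluripotent cells leave the naive state and become able to form the germ layers. Over this step DNA methyltransferases place methyl groups on CpG sites across the genome, and methylation of CpG-rich promoters is a known route by which germ cell genes are kept silent in somatic cells. Signals of the Wnt, Nodal and BMP families then pattern the epiblast into primitive streak, mesoderm and endoderm. The labels do not expand TKO, which is read here as loss of the 3 methyltransferase genes Dnmt1, Dnmt3a and Dnmt3b, an assumption, and nothing in the labels says whether the TKO line is 1 clone. Dnmt1, the maintenance enzyme, stood at 313 and 320 CPM (estimated counts scaled by library size) in WT day 4, 310 and 313 in WT day 7, 36.2 and 40.7 in TKO day 4 and 36.3 and 37.2 in TKO day 7. Its groups were apart by genotype on both days, and its interaction was -0.04 ± 0.13 (SE, adjusted p = 0.867). Dnmt3a, a de novo enzyme, read 297 and 380 CPM in WT day 4, 199.7 and 201 in WT day 7, 187 and 33.9 in TKO day 4 and 22 and 23.8 in TKO day 7. The TKO day 4 libraries stood far apart here, and the interaction of -1.52 ± 0.78 was not called (0.228). Dnmt3b, the other de novo enzyme, read 1516 and 1245, 991 and 965, 431 and 757, and 307 and 290 CPM in the same order of groups, with an interaction of -0.50 ± 0.26 (0.229). A transcript level measures no protein and does not establish the genotype.

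Depth was between 33168178 and 58197630 estimated counts per library. TKO day 4 was the loosest group, with 169 genes at 5 CPM or more that differed over 2-fold between its libraries, against 80 in WT day 4, 13 in TKO day 7 and 7 in WT day 7. The Nanog and Pou5f1 transcripts of pluripotent cells were abundant in all 8 libraries, at 196 CPM or more and 593 CPM or more.

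The change from day 4 to day 7 differed between the genotypes in a large part of the transcriptome. Such a difference can bring the genotypes closer as well as apart. Sox1 in TKO stood above WT by 1.90 (log2) on day 4 and by 0.09 on day 7. At an adjusted p under 0.05 the interaction was called for 3471 genes, 18.8% of those tested, 1657 higher (8.96%) and 1814 lower (9.81%). Changes of at least 2-fold were found in 1201 of the higher and 924 of the lower genes. The step itself was called for 6811 genes in WT (36.8%) and 8385 in TKO (45.4%), and the log2 changes of the 2 steps, which share no library, correlated across genes at r = 0.35 (Pearson, genes being no independent replicates). Among the 1657 higher genes, 645 rose in TKO without a called change in WT, 387 fell in WT without a called change in TKO, 287 fell in WT and rose in TKO, 176 rose in both, 133 fell in both and 29 had no called step. Among the 1814 lower genes, 610 fell in TKO without a called change in WT, 475 rose in WT without a called change in TKO, 277 fell in both, 216 rose in both, 207 rose in WT and fell in TKO and 29 had no called step.

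**Figure D1:**
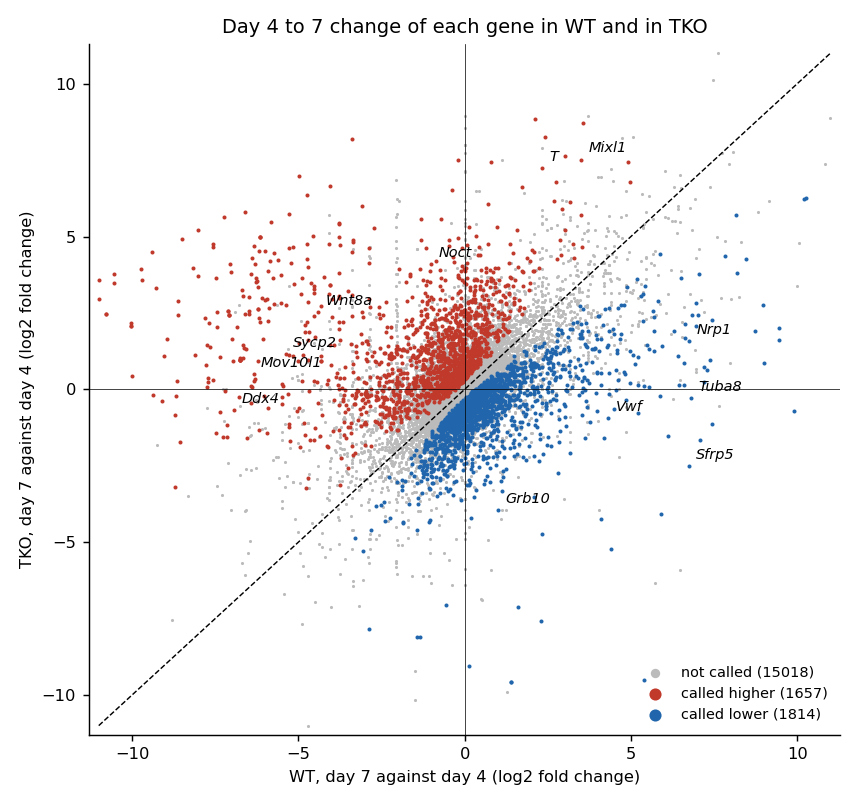
Log2 fold change from day 4 to day 7 in WT (x axis) and in TKO (y axis), 1 point per gene, coloured by the interaction call, with the dashed line marking equal change and 12 genes named. The 1657 genes called higher lie above the line and the 1814 called lower lie below it, and values beyond 11 on either axis are drawn at the edge (5 genes).

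Genes of piRNA defence, of meiosis and of the testis were called mostly higher. Of 20 genes of the piRNA pathway, which silences transposons in germ cells, 15 were called higher and 1 lower, with a median interaction of 2.24. Of 23 germ cell RNA-binding and other testis genes 15 were higher and 0 lower (median 2.92), and of 25 genes of meiosis 13 were higher and 1 lower (median 2.22), against a median of -0.0 over all genes tested. Across all genes tested 8.96% were higher and 9.81% lower. In WT the 3 lists had 15, 17 and 20 members that fell and 2, 1 and 0 that rose. In TKO they were mixed, with 7, 5 and 11 that fell and 6, 7 and 4 that rose. With group counts under 3 set to 3 the medians were 2.16, 2.82 and 2.20. The list of piRNA genes and that of testis genes both hold Mov10l1 and Ddx4.

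Mov10l1 (ENSMUSG00000015365.15, chromosome 15, 88982909 to 89055152, GRCm38), the RNA helicase that starts piRNA processing, had the highest value on these 3 lists among members with more than 3 counts in every group. It read 6.00 and 10.2 CPM in WT day 4 and fell to 0.0966 and 0.0965 in WT day 7, while TKO went from 29.1 and 36.1 to 47.3 and 45.1. The groups did not overlap, and the interaction was 6.85 ± 0.41 (adjusted p = 2.45e-07). Ddx4 (ENSMUSG00000021758.14, chromosome 13, 112598333 to 112652475), the Vasa helicase of germ cells, fell in both genotypes, in WT from 20.1 and 30.8 to 0.266 and 0.145 CPM and in TKO from 43.4 and 32.8 to 24.2 and 23.5, an interaction of 6.26 ± 0.35 (1.97e-07). Sycp2 (ENSMUSG00000060445.11, chromosome 2, 178345293 to 178407685), a part of the synaptonemal complex, fell in WT from 3.02 and 3.24 CPM to 0.0724 and 0.0723 and rose in TKO from 7.19 and 6.30 to 14.8 and 15.2 (6.53 ± 0.41, 3.88e-07). Stk31, a kinase of the testis, went the way of Ddx4, from 3.66 and 5.46 to 0.0724 and 0.0723 CPM in WT and from 15.8 and 13.7 to 10.3 and 9.12 in TKO (5.31 ± 0.40, 1.57e-06).

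Several germ cell genes reached 3 counts or fewer in WT day 7, where the fitted value is no measure of size. Tex11, an X-linked gene of meiosis, went from 210 counts over both WT day 4 libraries to 0 in WT day 7, at least 54.8-fold lower, and read 976 and 674 counts in TKO. Dazl, which germ cells need to translate their messages, went from 199 counts to 1 in WT, a 156-fold fall with a 95% counting interval from 27.7 to 6190, and was 3.16-fold higher in TKO (688 to 1687 counts). Taf7l, a transcription factor subunit of the testis, went from 127 to 2 counts in WT (49.8-fold, 13.5 to 415) and from 544 to 455 in TKO. Not all members moved this way: Tdrd7, a tudor protein of the piRNA pathway that other tissues also use, rose in WT from 2.78 and 4.70 to 19.19 and 17.4 CPM and read 8.02 and 9.49, then 10.2 and 8.87, in TKO (-2.17 ± 0.31, 0.000262).

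The sequences before the start are shown for 3 genes of high and 3 of low interaction, the first on each side that met the expression criteria and could be shown from the RefSeq promoter table, since CpG sites are where methylation acts. Each is the strand of the gene, 5′ to 3′, from RefSeq on GRCm38.p6, trimmed to the bases upstream of both the RefSeq and the GENCODE start, with CG in capitals. Mov10l1 is chr15:88982744-88982908 (plus strand), Sycp2 chr2:178407686-178407908 (minus), Ddx4 chr13:112652476-112652560 (minus), Sfrp5 chr19:42202253-42202502 (minus), Tuba8 chr6:121210484-121210695 (plus) and Cyp26a1 chr19:37697558-37697797 (plus).
Mov10l1: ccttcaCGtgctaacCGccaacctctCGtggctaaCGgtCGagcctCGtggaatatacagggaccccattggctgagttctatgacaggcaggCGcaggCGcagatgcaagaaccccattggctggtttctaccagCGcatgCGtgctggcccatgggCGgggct
Sycp2: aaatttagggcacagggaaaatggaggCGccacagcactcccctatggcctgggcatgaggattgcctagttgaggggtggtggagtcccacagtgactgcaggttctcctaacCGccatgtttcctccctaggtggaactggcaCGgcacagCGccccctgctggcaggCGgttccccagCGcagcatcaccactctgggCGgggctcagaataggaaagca
Ddx4: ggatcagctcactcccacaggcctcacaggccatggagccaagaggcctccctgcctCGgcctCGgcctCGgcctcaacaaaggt
Sfrp5: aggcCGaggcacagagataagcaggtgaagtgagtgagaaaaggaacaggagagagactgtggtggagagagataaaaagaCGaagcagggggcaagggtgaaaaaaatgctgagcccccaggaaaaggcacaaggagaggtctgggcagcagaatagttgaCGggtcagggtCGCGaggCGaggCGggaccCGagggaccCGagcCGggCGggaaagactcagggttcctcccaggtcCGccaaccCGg
Tuba8: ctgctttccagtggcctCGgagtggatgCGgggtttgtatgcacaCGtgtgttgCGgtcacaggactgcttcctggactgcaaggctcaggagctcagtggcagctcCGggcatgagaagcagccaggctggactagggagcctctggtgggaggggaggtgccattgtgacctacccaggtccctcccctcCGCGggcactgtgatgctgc
Cyp26a1: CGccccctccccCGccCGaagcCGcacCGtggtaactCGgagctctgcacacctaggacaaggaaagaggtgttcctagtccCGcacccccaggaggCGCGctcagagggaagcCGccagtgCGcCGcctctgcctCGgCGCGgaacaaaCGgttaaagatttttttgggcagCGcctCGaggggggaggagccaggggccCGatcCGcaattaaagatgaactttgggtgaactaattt
Over the 250 bases before the RefSeq start, Ddx4 held 31 CG dinucleotides, Cyp26a1 20, Mov10l1 19, Sfrp5 13 and Sycp2 and Tuba8 7 each. Over the full 250 bases the median of 32851 RefSeq promoters was 6, and 5.2% held 31 or more, 17.9% 20 or more and 46.3% 7 or more. The counts ran from 7 to 31 among the higher genes shown and from 7 to 20 among the lower, all above the median of 6. In Ddx4, 3 of the 31 lay in the printed bases. Whether the count goes with the interaction was not tested, since the genes shown are few and were chosen for extreme values. The word GCGGGA, searched on both strands, was found in Ddx4, Sfrp5 and Cyp26a1 and in 16.9% of all promoters. The palindrome CACGTG was found in Mov10l1, Ddx4 and Tuba8 and in 6.0% of all promoters. Neither match of Ddx4 lay in its printed bases. A match is a description of letters and measures neither binding nor methylation.

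Genes of the two-cell stage, when the embryo's own genome is first read, were higher as a block. Of 20 tested members 19 were called higher and 0 lower, beside 8.96% and 9.81% of all genes tested. In WT 17 fell and 0 rose, and in TKO all 20 rose. Summed over the list, WT held 21.9 and 42.0 CPM on day 4 and 1.18 and 1.35 on day 7, and TKO held 80.2 and 32.2 and then 574 and 1010. Both TKO day 7 libraries stood above every other library, and both WT day 7 libraries stood below every other library. The median interaction was 9.69, and 7.34 with group counts under 3 set to 3. A group of 3 or fewer counts was found in 17 members. Zscan4f, of a family active at this stage and in rare stem cells, went from 677 counts to 0 in WT, at least 177-fold lower, and from 1077 to 9778 in TKO, 11.7-fold higher. Tmem92 read 219 and 3 counts in WT (57.2-fold lower, 95% counting interval 19.3 to 279) and 716 and 12293 in TKO (22.1-fold higher). Among members above the floor in every group, Usp17la, a deubiquitinase, read 0.914 and 1.59 CPM in WT day 4, 0.386 and 0.410 in WT day 7, 2.48 and 1.13 in TKO day 4 and 17.7 and 31.9 in TKO day 7 (5.40 ± 0.57, 2.93e-05). Zscan4 and Usp17l copies are near identical, so reads cannot be given to 1 copy with certainty.

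The X-linked Rhox, Xlr and Mage families and the Pramel genes, read mainly in germ cells and placenta, gave 15 higher and 0 lower of 26 tested (median 3.24, and 1.08 with counts under 3 set to 3), and 9 higher without replicate 2 of WT day 7 or of TKO day 7. In TKO 15 rose and 8 fell, and in WT 0 rose and 15 fell. Xlr read 2.17 and 1.82 CPM in WT day 4, 0.628 and 0.844 in WT day 7, 3.73 and 6.35 in TKO day 4 and 19.0 and 19.7 in TKO day 7 (3.38 ± 0.34, 1.89e-05). Mageb16 read 2.60 and 1.82, 0.362 and 0.313, 9.81 and 5.24, and 17.6 and 17.3 in the same order (3.92 ± 0.43, 4.29e-05). Rhox5 was listed at 0 in all 16 libraries, and whether the quantification could detect it was not tested. On the X chromosome 112 of 749 tested genes (15.0%) were called higher and 7.3% lower, beside 8.96% and 9.81% of all genes tested. Of those 112 higher genes 13 belong to this list. These families have near-identical copies, which makes single members uncertain.

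Of 26 genes of streak and mesoderm 11 were called higher and 3 lower, beside 8.96% and 9.81% of all genes tested. The median interaction was 1.63, and it ranged from 0.61 to 2.13 over the fits that left out 1 library. The step was a called rise for 13 members in WT and 16 in TKO. T (ENSMUSG00000062327.10, chromosome 17, 8434423 to 8442496), the Brachyury factor that marks the streak, read 3.81 and 15.1 CPM in WT day 4, 51.6 and 42.9 in WT day 7, 5.71 and 1.03 in TKO day 4 and 516 and 527 in TKO day 7. On day 4 the genotypes overlapped, and on day 7 TKO was above WT by 3.46 ± 0.60 on the log2 scale (interaction 4.91 ± 0.89, 0.00414). Mixl1, a homeobox factor of the streak, went from 0.328 and 0.920 to 7.56 and 6.17 CPM in WT and from 0.50 and 0.368 to 75.1 and 85.5 in TKO (4.01 ± 0.43, 3.14e-05). Nkx1-2, of the late epiblast and tail bud, went from 3.57 and 8.03 to 3.43 and 3.42 CPM in WT, so its called fall there rested on 1 day 4 library. In TKO Nkx1-2 rose from 1.19 and 1.52 to 21.8 and 18.6 CPM (4.65 ± 0.41, 7.66e-06). Tbx6, of presomitic mesoderm, fell to 0.434 and 0.579 CPM in WT and rose to 8.94 and 10.7 in TKO (4.60 ± 0.41, 7.70e-06). Eomes, which acts in streak and endoderm, was called at 2.21 ± 0.48 (0.00791), moved to 1.47 without WT day 4 replicate 2 and lost its call in a fit of the 8 libraries alone (0.0761). Leaving out 1 library gave between 9 and 12 higher members in the list, and the fit of the 8 libraries alone gave 7.

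The 3 lower members were Kdr, Tbx20 and Lhx1. Kdr, a receptor of vascular progenitors, rose in WT from 0.586 and 0.209 to 1.11 and 1.01 CPM and fell in TKO from 11.3 in both libraries to 3.25 and 2.67 (-3.30 ± 0.43, 0.000141). Tbx20, a T-box factor of the heart, went from 1.33 and 0.690 to 12.3 and 9.94 CPM in WT and from 1.71 and 1.91 to 1.55 and 1.60 in TKO (-3.64 ± 0.40, 3.97e-05). The call for Lhx1 (-3.99 ± 1.12, 0.0311) was lost in 7 of 15 alternatives, and its value was -2.01 without TKO day 4 replicate 1.

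Wnt ligands, receptors, antagonists and targets gave 10 higher and 8 lower of 35 tested, and 5 lower without WT day 7 replicate 1 or TKO day 7 replicate 2. The shares over all genes tested were 8.96% higher and 9.81% lower. Of the ligands, Wnt8a, read in the streak, fell in WT from 13.7 and 55.7 to 1.88 and 1.4 CPM and rose in TKO from 13.1 and 2.25 to 44.1 and 44.6 (6.92 ± 1.10, 0.00177). Its day 4 libraries were 4.07-fold apart in WT and 5.81-fold in TKO. Of the feedback targets, Axin2, a brake on beta-catenin, fell in WT from 24.5 and 29.5 to 10.7 and 11.3 CPM and rose in TKO from 22.9 and 15.6 to 50.0 and 51.8 (2.69 ± 0.21, 2.52e-06). Nkd1, another feedback inhibitor, rose in TKO from 13.2 and 11.2 to 60.8 and 62.3 CPM, with no called change in WT (9.79 and 13.0, then 14.2 and 14.1), an interaction of 2.02 ± 0.18 (6.44e-06). Of the secreted antagonists, Sfrp5 (ENSMUSG00000018822.7, chromosome 19, 42197971 to 42202252), a frizzled-related protein of anterior endoderm, had the lowest value among called protein-coding genes that reached 5 CPM and had more than 3 counts in every group. It rose in WT from 0.293 and 0.209 to 31.5 and 23.5 CPM and fell in TKO from 0.542 and 0.437 to 0.0862 and 0.0826 (-9.24 ± 0.54, 2.19e-07). Of the receptors, Fzd5 rose in both, from 36.2 and 31.4 to 299 and 225 CPM in WT and from 30.4 and 30.5 to 54.7 and 51.8 in TKO (-2.15 ± 0.19, 7.92e-06). Tcf7, a factor that reads the Wnt signal, fell in WT from 113 and 121 to 58.2 and 61.4 CPM and read 73.8 and 77.9, then 78.0 and 76.6, in TKO (1.00 ± 0.10, 1.41e-05).

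**Figure D2:**
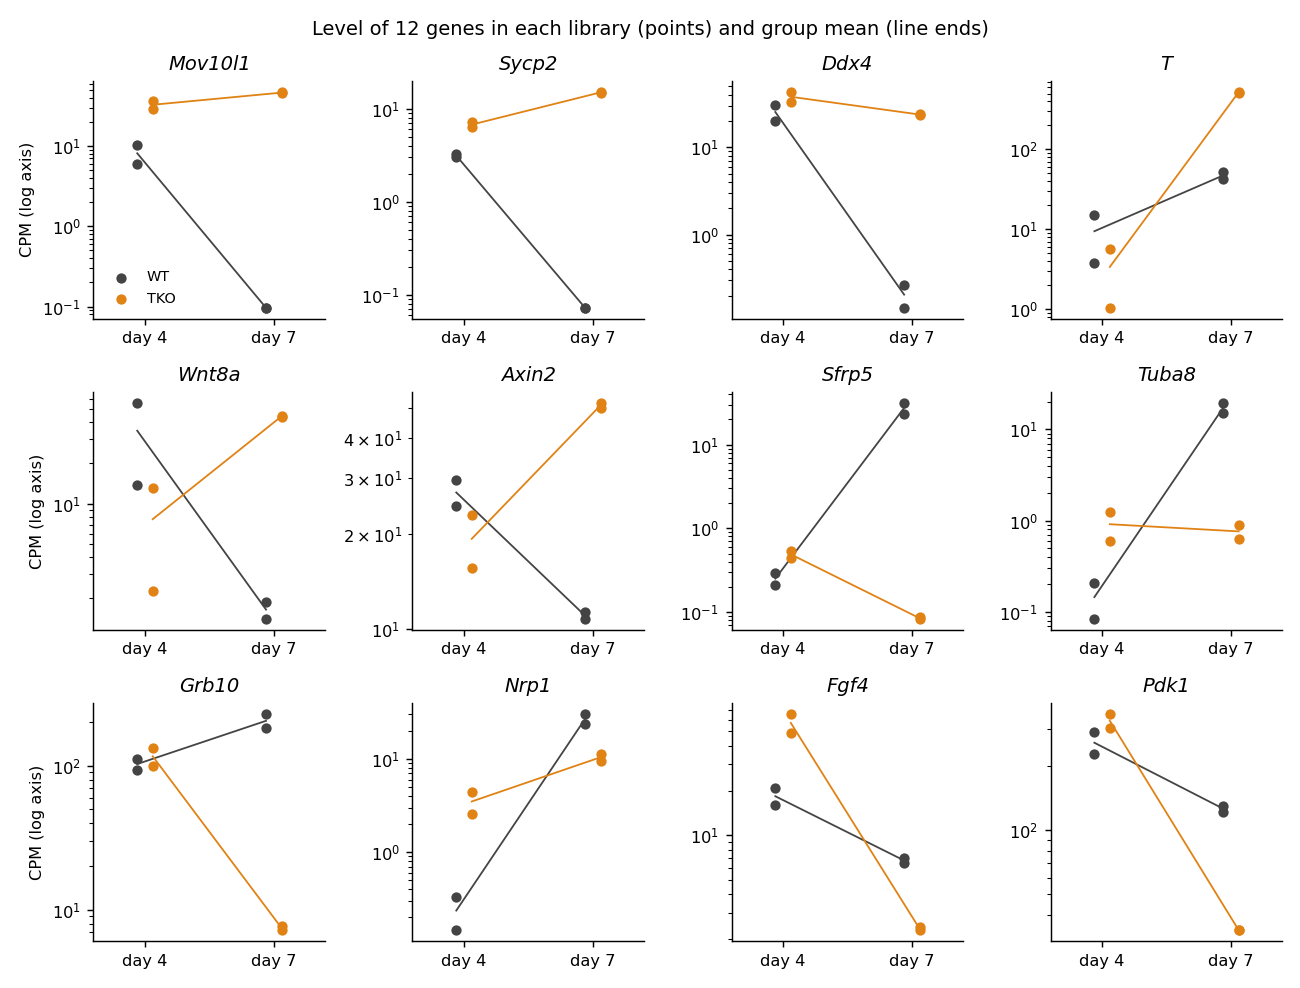
CPM on a log axis in each of the 8 libraries for 12 genes, WT in dark grey and TKO in orange, with lines joining the group means of day 4 and day 7. Mov10l1, Sycp2 and Ddx4 drop in WT, T, Wnt8a and Axin2 end higher in TKO, and Sfrp5, Tuba8, Grb10, Nrp1, Fgf4 and Pdk1 end lower in TKO.

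Of 21 endoderm genes 11 were called lower and 3 higher, beside 9.81% and 8.96% of all genes tested. The median interaction was -2.23, and it ranged from -3.13 to -1.35 over the fits that left out 1 library. In WT 15 members rose and 2 fell, and in TKO 13 rose and 3 fell, so that more members rose than fell in each genotype, and 5 were called higher in the interaction without TKO day 4 replicate 1. Sox17, the factor that defines endoderm, went from 0.0862 and 0 CPM to 40.8 and 29.2 in WT and from 1.54 and 0.782 to 4.40 and 5.04 in TKO (-7.44 ± 0.65, 6.86e-06). The value was -11.50 without WT day 4 replicate 1, which leaves a WT day 4 library at 0. Hnf4a, of visceral endoderm and liver, went from 3 to 351 counts in WT (149-fold, 95% counting interval 50.7 to 728) and from 71 to 17 in TKO. Cxcr4, a chemokine receptor of definitive endoderm, rose in both, from 1.03 and 1.25 to 53.1 and 36.6 CPM in WT and from 1.81 and 1.31 to 13.1 and 13.2 in TKO (-2.23 ± 0.30, 0.000189). Foxa2, which also marks the anterior streak, was among the 3 higher members: it read 2.71 and 10.7, then 46.1 and 39.2 CPM in WT, and 1.5 and 1.22, then 89.9 and 106 in TKO (3.48 ± 0.65, 0.00351). It moved to 2.18 without WT day 4 replicate 2, and its call was lost in the fit of the 8 libraries alone (0.0525). Trf, which encodes transferrin, fell in WT from 1.57 and 1.99 to 0.0966 and 0.265 CPM and rose in TKO from 4.69 and 2.92 to 8.88 and 8.95 (4.49 ± 0.45, 1.90e-05). Summed over the list, endoderm markers stood at 25.4 and 34.1 CPM in WT day 4 and at 117 and 41.1 in TKO day 4, where the libraries were far apart. The sums were 463 and 342 CPM in WT day 7 and 495 and 558 in TKO day 7. Cer1, a secreted Nodal and BMP antagonist, held a large part of the day 7 sums and read 209 and 154 in WT day 7 and 219 and 243 in TKO day 7.

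The genes of lowest interaction were chosen for that value, so their courses are given as a description. Tuba8 (chromosome 6, 121210696 to 121226854), an alpha tubulin, rose in WT from 0.207 and 0.0836 to 19.5 and 15.1 CPM and read 1.23 and 0.598, then 0.891 and 0.634, in TKO (-7.09 ± 0.56, 2.37e-06). Hesx1, a homeobox factor of the anterior head, went from 1 count to 990 in WT (1260-fold, 95% counting interval 226 to 50000) and read 17 and 8 counts in TKO. Vwf, a clotting factor of endothelium, went from 0.707 and 0.544 to 13.1 and 12.2 CPM in WT and fell from 1.27 and 1.47 to 0.632 and 0.799 in TKO (-5.25 ± 0.30, 2.09e-07). Cyp26a1, which degrades retinoic acid, rose in WT from 0.155 and 0.460 to 163 and 136 CPM and in TKO from 6.25 and 0.506 to 21.9 and 24.8 (-6.21 ± 1.13, 0.00384). Pga5 and Spink1, a pepsinogen and a protease inhibitor, also rose in WT, with no called change in TKO, and had values of -7.86 and -8.13. In these 3 genes TKO day 4 replicate 1 stood well above replicate 2, and without it the values were -3.48, -4.36 and -4.26.

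Of the Nodal and Activin pathway 2 of 20 genes were called higher and 4 lower, with 5 higher without WT day 4 replicate 1 and 1 higher without any 1 of the other 7 libraries. Fst, which encodes the Activin inhibitor follistatin, rose in WT from 8.95 and 11.2 to 28 and 23.6 CPM and in TKO from 12.3 and 7.38 to 280 and 259 (3.41 ± 0.28, 4.63e-06). The ligand gene Gdf3 fell in both, from 59.1 and 78.6 to 11.7 and 13.9 CPM in WT and from 168 and 148 to 13.8 and 10.7 in TKO (-1.27 ± 0.22, 0.00122). Of 23 BMP genes 4 were higher and 3 lower, with 2 higher without replicate 2 of WT day 7 or of TKO day 7 and 5 lower without TKO day 4 replicate 1. The ligands split: Bmp4 fell in WT from 7.53 and 7.92 to 4.10 and 3.52 CPM and rose in TKO from 6.31 and 5.38 to 13.7 and 12.2 (2.16 ± 0.21, 1.38e-05), while Bmp2 rose in both, from 0.0862 and 0.105 to 37.1 and 32.2 CPM in WT and from 1.4 and 0.828 to 22.7 and 20.6 in TKO (-4.20 ± 0.48, 4.68e-05). Chrd, the BMP inhibitor chordin, rose from 2.28 and 2.22 to 22.7 and 21.0 CPM in WT and from 4.35 and 5.13 to 85.6 and 102 in TKO (1.03 ± 0.16, 0.000606). Id1, a direct target of BMP, rose in WT from 1.98 and 4.10 to 41.4 and 38.5 CPM and read 9.0 and 24.3, then 17.2 and 21.3, in TKO (-3.52 ± 0.60, 0.00199). The counts of both lists were not tested against the shares over all genes tested, 8.96% higher and 9.81% lower.

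FGF and ERK targets gave 2 higher and 6 lower of 22, and 2 lower without TKO day 7 replicate 2. Phlda1, an immediate-early gene, rose in WT from 1.83 and 0.732 to 14.6 and 16.7 CPM and read 6.96 and 6.09, then 9.11 and 8.21, in TKO (-3.17 ± 0.38, 7.07e-05). Of the Notch pathway 3 of 20 were higher and 3 lower. Among all genes tested 8.96% were higher and 9.81% lower. Dll3, a ligand of presomitic mesoderm, ended at 10.5 and 8.92 CPM in WT and 87.3 and 80.3 in TKO (1.82 ± 0.22, 9.26e-05), and Jag2, another ligand, fell in TKO from 67.4 and 60.8 to 19.3 and 19.17 CPM with no called change in WT (-1.65 ± 0.17, 2.58e-05).

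Of 21 naive pluripotency genes 3 were higher and 6 lower, of 11 core genes 0 and 3, and of 21 formative and primed genes 2 and 4. The shares over all genes tested were 8.96% higher and 9.81% lower. The formative counts were 2 lower without WT day 7 replicate 1, 8 lower without TKO day 4 replicate 1 and 4 higher without TKO day 4 replicate 2, and 1 core gene was higher without WT day 4 replicate 1. Fgf4 (chromosome 7, 144847367 to 144865243), a ligand made by pluripotent cells, fell in WT from 15.9 and 20.8 to 6.52 and 7.02 CPM and in TKO from 48.8 and 65.5 to 2.30 and 2.40 (-3.17 ± 0.23, 1.11e-06), so that TKO began above WT and ended below it. Sox2 rose in WT from 33.8 and 42.1 to 59.1 and 53.9 CPM and fell in TKO from 39.9 and 22.4 to 15.4 and 16.8 (-1.53 ± 0.29, 0.00266). Utf1, a chromatin protein of stem cells, fell from 160 and 178 to 79.0 and 89.3 CPM in WT and from 163 and 195 to 27.2 and 27.5 in TKO (-1.71 ± 0.21, 8.84e-05). Spp1, which encodes osteopontin, rose in WT from 4.98 and 2.97 to 14.4 and 20.0 CPM and fell in TKO from 12.8 and 22.6 to 1.64 and 1.43 (-5.62 ± 0.44, 7.70e-06). Klf2 fell in both and less in TKO (1.92 ± 0.42, 0.00715). The interaction was not called for Pou5f1 (-0.38 ± 0.18, 0.162), Nanog (0.27 ± 0.15, 0.246), Esrrb (-0.81 ± 0.56, 0.367), Zfp42 (0.62 ± 0.43, 0.370) or Fgf5 (0.34 ± 0.29, 0.482). Among the genes of DNA methylation and its removal, where TKO day 4 replicate 2 left out gave 3 lower members, 1 of 16 was higher, Mbd1 (1.06 ± 0.15, 0.000269), and 1 lower, Tet3, an oxidase of methylcytosine, which fell in TKO from 67.9 and 77.2 to 30.3 and 35.7 CPM (-1.51 ± 0.28, 0.00219).

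Of 37 imprinted protein-coding genes, read from 1 parental copy, 3 were higher and 12 lower, beside 8.96% and 9.81% of all genes tested. Grb10 (ENSMUSG00000020176.17, chromosome 11, 11930508 to 12038683), an adaptor that restrains insulin signalling, read 112 and 93.2 CPM in WT day 4 and rose to 228 and 181 in WT day 7, and fell in TKO from 133 and 99.0 to 7.73 and 7.22. The genotypes overlapped on day 4, TKO was lower by -4.77 ± 0.17 (log2) on day 7, and the interaction was -4.95 ± 0.22 (1.78e-08). Cdkn1c, an inhibitor of the cell cycle, fell in WT from 1.83 and 1.99 to 0.362 and 0.289 CPM and read 11.9 and 8.35, then 10.4 and 15.9, in TKO (2.92 ± 0.39, 0.000185). Magel2 rose in TKO from 11.6 and 14.3 to 41.1 and 42.1 CPM with no called change in WT (2.02 ± 0.30, 0.000440). Zdbf2 was not called (-1.34 ± 0.53, 0.113). The count of lower imprinted genes was 5 without TKO day 7 replicate 2, 6 without WT day 4 replicate 2 or WT day 7 replicate 1, 7 without WT day 7 replicate 2 and 7 in the fit of the 8 libraries alone.

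Glycolysis and glucose transport was the list with the largest share of lower members, 18 of 27, with 2 higher and a median of -0.67. The shares over all genes tested were 9.81% lower and 8.96% higher. In WT 6 members rose and 9 fell, and in TKO 4 rose and 19 fell. Summed over the list, WT read 18200 and 23100 CPM on day 4 and 18300 and 18800 on day 7, and TKO 16600 and 16200 and then 8950 and 8850. Pdk1 (chromosome 2, 71873224 to 71903858), which keeps pyruvate out of mitochondria, fell in WT from 227 and 287 to 122 and 130 CPM and in TKO from 351 and 302 to 34.0 in both libraries (-2.23 ± 0.14, 4.49e-07), and between 53.8% and 64.8% of its counts in each group lay in models not annotated as protein-coding. Slc16a3, a lactate exporter, fell in TKO from 188 and 232 to 77.5 and 78.5 CPM and had no called change in WT (-1.66 ± 0.15, 8.83e-06). Vegfa, a growth factor read under low oxygen, rose in WT from 36.4 and 35.5 to 95.7 and 95.3 CPM and read 28.2 and 24.3, then 25.1 and 28.1, in TKO (-1.39 ± 0.12, 6.11e-06). The glucose transporter Slc2a3, named after its values were seen, rose in WT from 806 and 1034 to 1770 and 1560 CPM and fell in TKO from 1171 and 772 to 286 and 236 (-2.75 ± 0.26, 1.71e-05). Pfkfb4, a regulator of glycolysis, was 1 of the 2 higher members (2.17 ± 0.23, 2.66e-05). Leaving out 1 library gave between 14 and 19 lower members and 1 or 2 higher.

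Genes of matrix, adhesion and the contractile skeleton also leaned to lower values: 10 of 31 collagens and laminins (2 higher), 12 of 28 epithelial and adhesion genes (3 higher) and 9 of 23 actin and myosin genes (0 higher). Among all genes tested 9.81% were lower and 8.96% higher. The higher collagens and laminins were 1 or 2 when 1 library was left out. Col4a1, a basement membrane collagen, rose in WT from 80 and 70.3 to 253 and 218 CPM and fell in TKO from 319 and 133 to 65.7 and 66.1 (-3.43 ± 0.42, 0.000233). Lamb3, a laminin chain, ended at 8.79 and 10.2 CPM in WT and 1.93 and 2.07 in TKO (-2.44 ± 0.28, 4.68e-05). Cldn4, a tight junction protein, ended at 27.5 and 36.1 CPM in WT and 13.6 and 12.0 in TKO (-2.01 ± 0.30, 0.000594), while Snai1, a repressor of epithelial genes, rose in TKO from 1.29 and 0.736 to 9.80 and 11.2 CPM with no called change in WT (3.20 ± 0.50, 0.000586). Tpm2, a tropomyosin, fell in TKO from 32.4 and 37.6 to 13.4 and 14.5 CPM (-1.44 ± 0.16, 3.13e-05). The actin and myosin count ranged from 5 without TKO day 7 replicate 2 to 14 without WT day 4 replicate 1. Keratins and epithelial cytoskeleton gave 5 higher and 4 lower of 21, with between 1 and 4 higher and between 2 and 8 lower when 1 library was left out (8 without WT day 4 replicate 1, and 1 higher without either WT day 7 library or without TKO day 4 replicate 1).

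Axon guidance genes, which also act in gastrulation, gave 5 higher and 9 lower of 33, beside 8.96% and 9.81% of all genes tested. Nrp1 (chromosome 8, 128358604 to 128503363), a receptor for semaphorins and Vegf, rose from 0.328 and 0.146 to 30.1 and 23.4 CPM in WT and from 2.56 and 4.41 to 11.2 and 9.59 in TKO (-5.18 ± 0.49, 1.29e-05). Epha1, an ephrin receptor, fell in WT from 106 and 120 to 53.9 and 59.6 CPM and rose in TKO from 152 and 85.3 to 332 and 314 (2.43 ± 0.26, 4.64e-05). Of 32 Polycomb subunits 7 were lower and 0 higher. Together 21.9% of this list was called, near the 18.8% of all genes tested, and the difference was not tested. Phf19, which directs the Polycomb repressive complex, fell from 9.81 and 11.2 to 5.33 and 7.16 CPM in WT and from 6.00 and 5.61 to 0.546 and 0.551 in TKO (-2.64 ± 0.26, 1.66e-05). Phc1, a subunit of the other complex, fell from 961 and 975 to 547 and 574 CPM in WT and from 1131 and 1089 to 385 and 379 in TKO (-0.75 ± 0.10, 0.000189). Of 31 Hox genes 1, Hoxb1, was called (3.89 ± 0.72, 0.00191), with 2.59 and 2.73 CPM in TKO day 7, while 18.8% of all genes tested were called. Without TKO day 4 replicate 1 the list had 3 higher members and without TKO day 4 replicate 2 it had 3 lower ones, and its median ranged from -0.88 to 1.26 over the fits that left out 1 library.

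Neural genes gave 4 higher and 8 lower of 25, trophoblast genes 1 and 6 of 19, and primordial germ cell factors 3 and 3 of 13. Across all genes tested 8.96% were higher and 9.81% lower. Leaving out 1 library gave between 0 and 2 higher trophoblast genes. Sox1, of the early neural plate, fell in WT from 17.3 and 17.7 to 11.3 and 8.87 CPM and in TKO from 56.4 and 74.3 to 11.5 and 10.03 (-1.81 ± 0.22, 7.88e-05). Dcx, of migrating neurons, ended at 1.30 and 0.796 CPM in WT and 12.5 and 15.2 in TKO (2.84 ± 0.36, 0.000116). Gata3, of trophoblast, ended at 9.80 and 8.22 CPM in WT and 1.47 and 1.05 in TKO (-3.29 ± 0.54, 0.000822). The germ cell specifier Prdm1 rose in WT from 3.09 and 5.79 to 29.3 and 21.7 CPM and read 8.11 and 8.83, then 14.9 and 12.8, in TKO (-1.82 ± 0.31, 0.00117), while Dnd1, an RNA-binding protein of germ cells, fell in WT from 5.78 and 7.27 to 0.966 and 0.699 CPM and ended at 12.4 and 11 in TKO (3.16 ± 0.35, 3.58e-05). Feeder and stromal fibroblast markers gave 2 higher and 2 lower of 12, with 1 or 2 higher and between 1 and 4 lower when 1 library was left out (4 without WT day 4 replicate 1). Their summed level was 672 and 690 CPM in WT day 7 and 632 and 608 in TKO day 7, and their part in the other results was not tested.

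Interferon and RNA-sensing genes gave 6 higher and 4 lower of 28. Mx1, an antiviral GTPase, rose in TKO from 2.81 and 2.67 to 24.5 and 27.6 CPM with no called change in WT (2.95 ± 0.20, 9.13e-07), though 99.7% of its TKO day 7 counts lay in 1 transcript model annotated for nonsense-mediated decay. Ifitm1 fell in WT from 10.2 and 11.1 to 4.88 and 4.61 CPM and rose in TKO from 15.8 and 9.01 to 66.1 and 67.1 (3.58 ± 0.31, 8.83e-06). Usp18, a brake on interferon signalling, rose in WT to 7.94 and 6.94 CPM and stood at 0.977 and 0.799 in TKO day 7 (-4.43 ± 0.74, 0.000942). Of 23 p53 targets 4 were higher and 4 lower, of 25 amino acid and ER stress genes 4 and 4, of 26 genes of sterol and fatty acid synthesis 2 and 4, and of 26 cell cycle genes 2 and 4. Over all genes tested 8.96% were higher and 9.81% lower, and whether these lists differ from those shares was not tested. Leaving out 1 library gave between 2 and 4 higher and between 2 and 6 lower p53 targets, between 1 and 4 higher and between 4 and 8 lower stress genes, between 1 and 6 lower sterol genes, and between 1 and 2 higher and between 2 and 6 lower cell cycle genes. The lowest of these lower counts came without WT day 4 replicate 2 for p53 targets, without WT day 7 replicate 1 or TKO day 7 replicate 2 for sterol genes and without TKO day 7 replicate 2 for the cell cycle, and the 8 stress genes came without TKO day 4 replicate 2. Cdkn1a, the main p53 target, was not called (-0.38 ± 0.13, 0.0529).

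**Figure D3:**
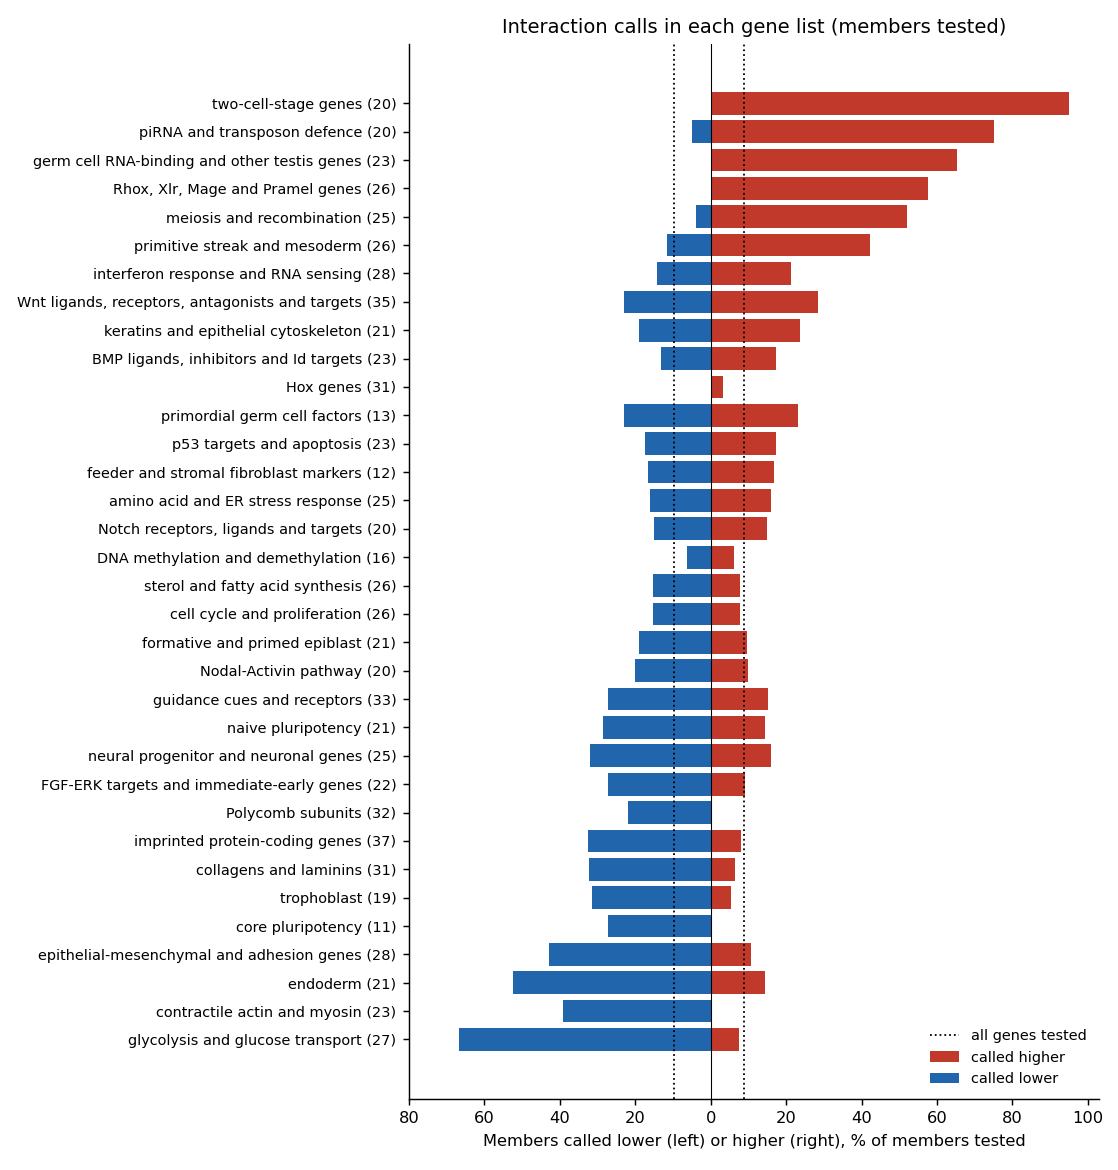
Percent of the tested members of each of the 34 gene lists called higher (red, right) or lower (blue, left) in the interaction, with the number tested in brackets and dotted lines at the 8.96% and 9.81% of all genes tested. Two-cell-stage and germ line lists extend furthest to the right, and glycolysis (18 of 27) furthest to the left.

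**Figure D4:**
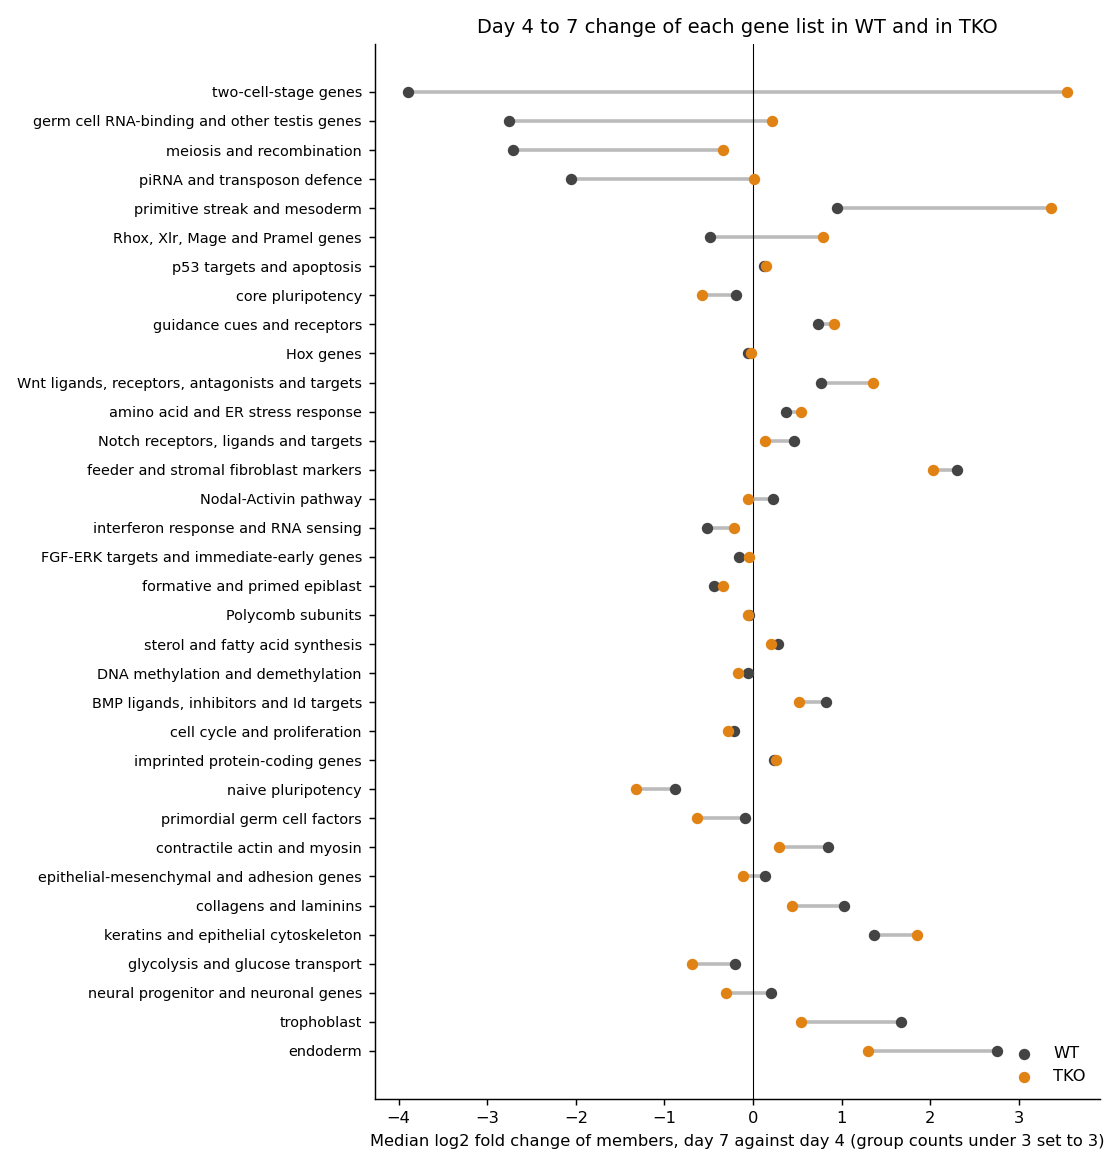
Median log2 fold change from day 4 to day 7 of the members of each list in WT (dark grey) and TKO (orange), with group counts under 3 set to 3, ordered by the median interaction. Two-cell-stage genes lie on opposite sides of 0 in the genotypes, and streak genes lie above 0 in both, further in TKO.

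Outside the lists, the lowest p-values among named protein-coding genes with 5 CPM or more were looked up after the values were seen. On the lower side stood Ddah1, Sh3tc1, Vwf, Rab15, Tnnt1, Prss23, Sec14l2 and Clic6. Prss23, a secreted protease, rose in WT from 1.66 and 1.65 to 38.0 and 39.6 CPM and in TKO from 3.40 and 2.69 to 4.51 and 5.01 (-3.91 ± 0.23, 2.19e-07). Rab15, a small GTPase, rose in WT from 38.6 and 29.0 to 103 and 86.8 CPM and fell in TKO from 53.9 and 40.5 to 10.2 and 10.6 (-3.66 ± 0.21, 2.10e-07). On the higher side stood Wdr31, Noct, Sirt5, Slc38a6, Rab3gap1, Sgip1, Fam198b and Ndrg1. Noct, which encodes a circadian phosphatase, fell in WT from 312 and 296 to 151 and 154 CPM and rose in TKO from 640 and 984 to 13347 and 14546 (5.10 ± 0.21, 1.78e-08), where it held 1.4% and 1.55% of all counts of the 2 libraries. Slc38a6, an amino acid transporter, rose in TKO from 604 and 948 to 11112 and 11504 CPM (4.90 ± 0.22, 1.78e-08), 1.17% and 1.23% of all counts.

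The transcript models behind these counts were looked at next. Slc38a6 drew 99.9% of its TKO day 7 counts from 1 model of 3927 bases and Noct 96.0% from 1 model of 9797 bases. In Wdr31, the gene with the lowest p of the whole comparison (3.05 ± 0.12, 1.36e-08), models not annotated as protein-coding held 16.6% of the counts in WT day 4, 15.0% in WT day 7, 48.3% in TKO day 4 and 96.8% in TKO day 7. In Rab3gap1 they held 33.3%, 21.2%, 73.7% and 98.1%. In Sgip1 they held 91.5% or more in each of the 4 groups. The leading models share sequence: Slc38a6 and Rab3gap1 had 705 words of 31 bases in common, 18.1% and 39.7% of each, Wdr31 and Sirt5 had 418 (19.9% and 27.5%), and Noct shared 122 with Wdr31 and 107 with Sirt5. Reads from shared stretches cannot be given to 1 gene with certainty, and Sgip1 shared 16 words with Slc38a6, so the levels of these 6 genes are uncertain. Over all protein-coding genes called higher, 6.7% had over 50% of their TKO day 7 counts in such models, against 3.6% of those called lower and 6.5% of those tested.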

How the data were processed

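Poly(A) RNA of 16 libraries, 2 per genotype and day, was sequenced as stranded mRNA libraries, per the labels' protocols. The deposited tables give an estimated count, an effective length and TPM per transcript. Per the submitters' processing notes they came from kallisto with GRCm38 (mm10), and the annotation release is not given in the sources used here. The authors' estimated counts were summed per gene through GENCODE annotation of GRCm38 (97.8% of 119414 transcripts matched; unmatched transcripts held 0.95% to 1.05% of counts) and rounded to whole numbers. The deposited TPM values and effective lengths entered no main test; effective lengths served 1 alternative.

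Genes passing edgeR's filter on low counts were fitted with edgeR 4.0.16 (TMM, quasi-likelihood test, R 4.3.3) over all 8 groups, so that all share 1 estimate of spread, and p-values were adjusted by Benjamini-Hochberg over all 18489 genes with a threshold of 0.05. The interaction, both steps and their standard errors come from this fit. The groups were not equally tight. The median absolute log2 difference between libraries was 0.0727 in TKO day 0, 0.271 in WT day 0, 0.164 in WT day 4 and 0.179 in TKO day 4. It was 0.0937 in WT day 7 and 0.109 in TKO day 7. A group with 3 or fewer summed counts is at the floor, where folds are bounds or ratios with a 95% counting interval, which covers counting error only. The fit was tested on simulated data.

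The members, gene lists and rules were chosen with earlier results of these data known. Genes named are the 12 highest and 12 lowest called protein-coding genes with 5 CPM or more, more than 3 counts in every group and 1 sign over 16 ways of taking 1 library per group, the 3 called members per list and direction of lowest adjusted p, 4 per direction at the floor, and 23 fixed genes. Alternatives were RLE scaling, DESeq2 1.42.0, other filters, the 8 libraries alone, an effective-length offset, a replicate block and leaving out each library. Not every gene that met these rules is reported here.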

Additional observations from a re-analysis of the deposited data

Results flagged for a closer look

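Each result here is a difference between the 2 genotypes in the same step, tested by the interaction in edgeR's quasi-likelihood fit with Benjamini-Hochberg adjustment. It was called for 3471 genes, of which 287 fell in WT and rose in TKO and 207 rose in WT and fell in TKO. Among the named genes reported here with more than 3 counts in every group, those that fell in WT and rose in TKO had interactions of 8.26 for Zscan4-ps1, 6.92 for Wnt8a, 6.85 for Mov10l1, 6.53 for Sycp2, 5.61 for Usp17lc, 5.40 for Usp17la, 5.35 for Col14a1, 5.21 for Ccno, 4.65 for Nkx1-2, 4.60 for Tbx6, 4.49 for Trf, 3.92 for Mageb16, 3.58 for Ifitm1, 3.48 for Evpl, 3.38 for Xlr and 3.15 for Xlr5c, and at smaller size 2.69 for Axin2, 2.43 for Epha1, 2.34 for Tdrd5, 2.16 for Bmp4, 1.54 for Ifitm3, 1.26 for Klf4, 0.99 for Dusp4, 0.86 for Lef1 and 0.82 for Ei24. Those that rose in WT and fell in TKO had interactions of -9.24 for Sfrp5, -5.62 for Spp1, -5.53 for Myl3, -5.25 for Vwf, -4.95 for Grb10, -4.47 for Gata2, -3.43 for Col4a1 and -3.30 for Kdr, and at smaller size -1.83 for Robo1, -1.58 for Klf5, -1.53 for Sox2, -1.29 for Lamb2, -1.14 for Msi1, -0.89 for Slc7a11 and -0.54 for Adar. The fall of Nkx1-2 in WT rested on 1 of its day 4 libraries, which read 3.57 and 8.03 CPM. Genes with a group of 3 or fewer counts, such as Zscan4f, Dazl and Hnf4a, are left to their bounds and ratios.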

How the results depend on the processing

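The 3471 calls became 3447 with RLE scaling, 3270 with no filter, 3126 with a stricter filter, 3511 with the 8 libraries alone, 3469 with the effective-length offset and 3562 with DESeq2. Leaving out 1 library gave between 2450 and 3595 calls, between 1076 and 1557 higher and between 1348 and 2038 lower, and for the fall in WT between 2155 and 2747 genes. The higher count was 1088 and 1076 without WT day 7 replicate 1 and 2, and 1102 without TKO day 7 replicate 2; the count that fell in WT was 2155 and 2319 without WT day 7 replicate 1 and 2. A fit with 1 library left in a group assumes that it varies like the others. In each alternative, 0 genes called in both fits changed sign. Of 181 named genes called, 140 kept their call under all 15 alternatives, and another 6 kept it under the 14 that tested them, having failed the stricter filter. Deviations of same-numbered replicates correlated at -0.11 to 0.04 among the 4 groups of days 4 and 7, and at -0.33 to 0.07 among all 8 groups. The labels do not say whether a replicate number marks a shared day, and these correlations cannot settle it. A replicate block gave 3180 calls, 1515 higher and 1665 lower, with 5 named calls lost. With 2 libraries per group, small differences could be missed, though some were called, such as -0.54 for Adar. Levels near 3 counts per group carry wide intervals.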

Other observations

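Of 989 processed pseudogenes tested 87 (8.8%) were higher and 18 (1.8%) lower, against 1501 (8.8%) higher and 1784 (10.5%) lower of 17004 protein-coding genes. Of 166 unprocessed pseudogenes 26 (15.7%) were higher and 3 (1.8%) lower. These differences were not tested, and reads of a pseudogene and its parent gene cannot always be told apart.

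Of the 112 X-linked genes called higher, 20 were on any of the gene lists. In 314 of the 3471 called genes the TKO day 4 libraries were over 2-fold apart. The matching count over all genes tested is not given here, so whether called genes differ in this was not tested.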
